A study of Mus musculus with 8 samples.

Results

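Kidney cortex of 50-week-old SAMP1 mice was compared with that of SAMR1 mice of the same age. The arrays were chosen by their titles, which place 4 of the 8 arrays of the study at 50 weeks: 2 SAMP1 mice, numbered 1 and 4, and 2 SAMR1 mice, numbered 6 and 12. The other 4 arrays, of 2 SAMR1 mice (1 and 4) and 2 SAMP1 mice (4 and 5), were taken at 10 weeks and are used here to show which differences between the strains were already present in young animals. All 8 mice were male, the labels name no treatment and no engineered allele, and each array carried total RNA from 1 piece of cortex, labelled with the dye Cy3 and hybridised alone. The title places the study in renal impairment with age.

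SAM lines (senescence-accelerated mouse) are inbred strains that were derived from AKR/J mice by selection on signs of early ageing. SAMP1 is a prone strain, known for a short life, amyloid deposits, a weakened immune response and contracted kidneys, and SAMR1 is a resistant strain used as its control. The 2 strains carry different versions of many genes, so a difference between them need not concern ageing. The cortex of the kidney is mostly proximal tubule, with glomeruli, distal tubules, vessels and a small number of immune cells.

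Levels are given throughout as log2 of the background-corrected signal minus the 75th percentile of that array, so that 0 is a fairly bright probe, and differences are SAMP1 minus SAMR1 on the same log2 scale, with a standard error (SE) from the fit. A gene is called here where its adjusted p was under 0.05 in limma over 22658 genes. A gene said to rise or fall is higher or lower in SAMP1 than in SAMR1 of the same age, which is not a change with age. Each mean rests on 2 mice a group, so p-values measure the spread between these few animals. Between 61.4% and 64.4% of the spots of each array were well above background and none were saturated. Arrays of 1 group correlated at 0.992 to 0.993 and arrays of different groups at 0.984 to 0.990, and no pair of arrays held identical values. Markers of the proximal tubule were all measured, with a median level of 6.25 and 6.34 in the SAMR1 mice and 6.58 and 6.54 in the SAMP1 mice at 50 weeks. Defining genes of adrenal gland, fat and skeletal muscle (Cyp11a1, Cyp11b1, Adipoq, Plin1 and Ckm) were not well above background on both arrays of any group. Other listed markers of these tissues did pass that filter, 5 of 10 for adrenal gland, 4 of 9 for fat and 5 of 8 for skeletal muscle, and their median strain differences at 50 weeks were -0.08, -0.06 and 0.21.

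At 50 weeks 1248 of 22658 genes were called, which is 5.51% of the genes tested. Of these, 742 (3.27%) were higher and 506 (2.23%) lower in SAMP1, and 700 differed at least 2-fold. The median difference over all genes was -0.017. At 10 weeks 786 genes (3.47%) were called between the same strains, 456 (2.01%) higher and 330 (1.46%) lower in SAMP1. Of the 50-week genes, 632 were also called at 10 weeks, and 629 of these had the same sign. The other 616 missed the threshold at 10 weeks, which does not show that the strain difference changed with age: the interaction, that is, the strain difference at 50 weeks minus that at 10 weeks, passed for 2 genes (0.00883% of those tested, 1 in each direction, 0.00441% each), and 614 of the 616 did not pass it. At an unadjusted p under 0.05 the interaction held 1455 genes. In 10931 genes (48.2%) both SAMP1 mice lay on the same side of both SAMR1 mice, so groups that do not overlap are common with 2 mice against 2.

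Leaving out 1 aged mouse leaves 1 mouse in its group, and the smaller group alone can end a call. A call lost in this way therefore does not show that the difference rests on the mouse left out. The 50-week count was lower without each aged mouse. Without SAMR1 mouse 6 it was 721, without SAMR1 mouse 12 it was 628, without SAMP1 mouse 1 it was 811 and without SAMP1 mouse 4 it was 572. Haemoglobin RNA, a sign of red blood cells in the tissue, also differed between the groups. The mean level of 5 haemoglobin genes was -0.76 and 1.17 in the 50-week SAMR1 mice and 5.53 and 3.33 in the 50-week SAMP1 mice, while at 10 weeks the SAMR1 mice were the higher, with 5.11 and 5.60 against 1.25 and 3.64. With that mean as a covariate 85 genes were called at 50 weeks. The covariate moves with strain within this age, and the counts left under it are given with the gene lists below.

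**Figure D1:**
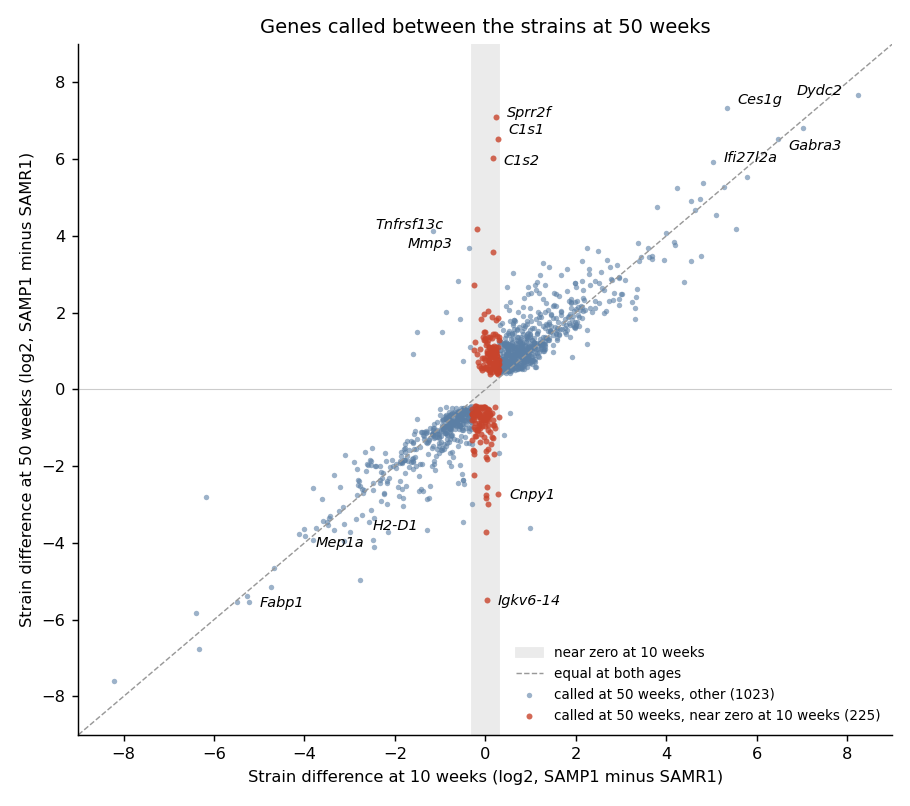
Strain difference at 50 weeks (vertical axis, log2 SAMP1 minus SAMR1) against the difference at 10 weeks (horizontal axis) for the 1248 genes called at 50 weeks. The 1023 blue points lie mostly along the diagonal, and the 225 red points are genes whose difference at 10 weeks was at most 0.3 in size.

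Genes that differed at 50 weeks and lay near zero at 10 weeks, taken as a log2 difference of at most 0.3 in size, numbered 225, of which 120 were higher and 105 lower in SAMP1. They made up 18.0% of the called genes, whereas 76.2% of all genes tested lay within that limit at 10 weeks. Their differences were smaller than those of the other called genes, with a median size of 0.81 against 1.15, and 76 of them reached 2-fold. Of the 225, 194 had an unadjusted interaction p under 0.05 in limma and 2 passed after adjustment. The interaction is built from the same 2 differences by which these genes were chosen. A low unadjusted p therefore follows largely from the choice and does not show a change with age. For 16 of them no 10-week array was well above background, so their near-zero difference there compares only background. The count was 130 and 84 without SAMR1 mouse 6 or 12, 146 and 75 without SAMP1 mouse 1 or 4 at 50 weeks, and 5 with haemoglobin as a covariate. Leaving out SAMP1 mouse 1 also turned the balance, to 50 higher and 96 lower. Among the 10-week arrays the count fell to 119 without SAMP1 mouse 4, 140 without SAMP1 mouse 5, 148 without SAMR1 mouse 1 and 137 without SAMR1 mouse 4.

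B-cell genes were among those higher in SAMP1. Tnfrsf13c encodes the receptor for the B-cell survival factor BAFF. Its level was -7.50 and -7.54 in the 50-week SAMR1 mice and -3.16 and -3.51 in the SAMP1 mice, and between -7.83 and -7.24 on the 4 arrays at 10 weeks. Both aged SAMP1 mice thus stood apart from the other 6 animals, in which no array was well above background. The filter kept this probe only through the aged SAMP1 arrays, so the pattern is partly what the filter selects. The difference at 10 weeks compares background with background. The difference at 50 weeks was 4.19 ± 0.209 (SE, adjusted p = 0.000355), at least 4.26-fold when background limits the dimmer group, and that at 10 weeks was -0.19. The interaction was 4.37 ± 0.296 (adjusted p = 0.0489), and its adjusted p ran from 0.0192 to 1 over the alternatives. Without the filter on dim probes, when another probe stands for the gene, the interaction was 0.09 (adjusted p = 0.984). The interaction call therefore rests in part on how the probe entered the test. The kept Tnfrsf13c probe lies at chr15:82052225-82052284 (mm9, as all probe positions here). A second probe for the gene, well above background on 3 of 8 arrays and not kept, differed by 0.16 at 50 weeks, so the difference rests on 1 probe.

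Bank1, a B-cell adaptor protein, was higher by 1.86 (adjusted p = 0.00616, at least 3.27-fold), with no SAMR1 array well above background at 50 weeks. Its call was lost with normexp background correction and with haemoglobin as a covariate. Over the alternatives its difference ran from 0.23 to 2.05. Cd79b, a signalling chain of the B-cell receptor, was higher by 1.37 (adjusted p = 0.0157) and lost its call without SAMR1 mouse 6, SAMR1 mouse 12 or SAMP1 mouse 1. Of the 9 tested genes of the B and plasma cell list 3 rose, Ms4a1 (CD20) and Cd79b among them, and none fell, against the 3.27% of all genes called higher. The median difference of the list was 0.76 at 50 weeks and -0.21 at 10 weeks. Ms4a1 was higher by 2.84 (adjusted p = 0.0194), but another of its probes gave -0.30. Jchain, the joining chain of secreted antibody from plasma cells, had a difference of -1.22 (adjusted p = 0.381). Without SAMR1 mouse 6, SAMR1 mouse 12 or SAMP1 mouse 1 the list held 1 call, and with haemoglobin as a covariate none, with a median of 0.06.

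T-cell and lymphoid regulators appeared beside them. Stat4, a transcription factor of interleukin-12 signalling, was higher by 1.97 (adjusted p = 0.0273, at least 2.04-fold) and had a 10-week difference of -0.02. Runx3, a transcription factor of cytotoxic T cells, was higher by 1.89 (adjusted p = 0.00856), although a second probe gave 0.33. Stat4 lost its call with any 1 aged mouse left out or without either young SAMR1 mouse, and Runx3 without SAMR1 mouse 12.

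The complement genes C1s1 and C1s2 were also higher in aged SAMP1 and near zero at 10 weeks. C1s is the protease of the first complement component, which cuts C4 and C2 once C1q has bound, and mice carry 2 copies of its gene. C1s1 was at -5.87 and -6.55 in the aged SAMR1 mice and at 0.03 and 0.60 in the aged SAMP1 mice. C1s2 was at -5.99 and -5.44 in SAMR1 and at -0.01 and 0.63 in SAMP1. On the 10-week arrays C1s1 ran from -0.26 to 0.58 and C1s2 from -0.07 to 0.48, so it was the pair of aged SAMR1 mice that stood apart from the other 6 animals. The differences were 6.53 ± 0.361 (adjusted p = 0.000519) and 6.03 ± 0.303 (adjusted p = 0.000357), at least 53.6-fold and 53.4-fold, and both stayed past the threshold in all 19 alternative fits that measured them. The interaction reached an adjusted p of 0.0622 for C1s1 and 0.0517 for C1s2. The probes lie at chr6:124480775-124480834 and chr6:124574742-124574801, and the genes are close relatives, so a probe may read both. C1ra, the partner protease of the same complex, lies at chr6:124473052-124473111. It was at -0.94 and -0.71 in SAMR1 and 0.38 and 0.77 in SAMP1, a difference of 1.40 ± 0.202 (adjusted p = 0.0143), which lost its call without SAMR1 mouse 6, SAMR1 mouse 12 or SAMP1 mouse 4.

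Of 20 tested complement genes 6 were called higher and 3 lower in SAMP1, against 3.27% and 2.23% of all genes. Their median was 0.68 at 50 weeks and 0.17 at 10 weeks, and 5 of the 9 called lay near zero at 10 weeks. Besides C1s1, C1s2 and C1ra, the genes for 2 chains of C1q, the recognition part of the complex, were higher: C1qc by 1.05 (adjusted p = 0.0228) and C1qb by 0.71 (adjusted p = 0.0417). The next genes were chosen after their values were seen. C3, the central protein of the cascade, was at 2.20 and 2.25 in SAMR1 and at 2.96 and 3.12 in SAMP1 (difference 0.82 ± 0.157, adjusted p = 0.0381, -0.07 at 10 weeks). Masp2, a protease of the lectin pathway, was at -0.01 and -0.25 in SAMR1 and -0.80 and -0.83 in SAMP1 (difference -0.68 ± 0.116, adjusted p = 0.0247, 0.08 at 10 weeks). C2 and C4a were lower by 0.54 and 0.97, with like values at 10 weeks (-0.52 and -0.91). Without single aged mice the list held 2 to 6 higher calls and 1 lower call: 3 higher without SAMR1 mouse 6, 2 without SAMR1 mouse 12, 6 without SAMP1 mouse 1 and 2 without SAMP1 mouse 4. C3 lost its call with any 1 aged mouse left out, and Masp2 without SAMR1 mouse 6, SAMP1 mouse 1 or SAMP1 mouse 4. Masp2 also lost its call with the mean of all its kept probes. With haemoglobin as a covariate the list held 2 higher calls, C1s1 and C1s2, and no lower one.

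Sprr2f, a small proline-rich protein of cornified and stressed epithelia, was higher in aged SAMP1 and near zero at 10 weeks in the mean. It was at -7.55 and -7.58 in the aged SAMR1 mice, below background, and at -1.18 and 0.27 in the aged SAMP1 mice, a difference of 7.11 ± 1.28 (adjusted p = 0.0304, at least 31.4-fold). At 10 weeks the 2 mice of each strain differed widely, with -7.89 and -4.95 in SAMR1 and -7.73 and -4.63 in SAMP1, so the near-zero mean of 0.24 hides a spread of about the same size in both. The call was lost with any 1 aged mouse left out.

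Other genes were lower in SAMP1 and near zero at 10 weeks. Cnpy1, a canopy-family protein linked to fibroblast growth factor signalling, was at -4.82 and -4.91 in aged SAMR1 and at -7.59 and -7.60 in aged SAMP1, and below background in both strains at 10 weeks. It differed by -2.73 (adjusted p = 0.000987, at least 1.53-fold). The call was lost with normexp background correction and with haemoglobin as a covariate. Over the alternatives the difference of Cnpy1 ran from -2.79 to -0.17. Fcamr, a receptor for the Fc part of IgA and IgM, was at -0.46 and -0.58 in SAMR1 and -1.59 and -1.92 in SAMP1. This difference of -1.24 (adjusted p = 0.00856) was lost without SAMR1 mouse 6, and all 4 aged mice lay above the 10-week range of -2.30 to -1.94, the SAMR1 mice by more. Olfr1466, an olfactory receptor, fell by 1.55 (adjusted p = 0.00372). Mir124-2hg, the host transcript of a microRNA, fell by 1.36 (adjusted p = 0.00758). Its 10-week levels were all at background, between -7.99 and -7.84, and both strains were above them at 50 weeks. Wfdc3 and Msmp, both small secreted proteins, fell by 1.26 and 1.17, the first with other probes at -0.70 and -0.15. Wfdc3 lost its call without SAMR1 mouse 12 or SAMP1 mouse 4, and Msmp with any 1 aged mouse left out. Lrrc52 (-1.11) and Ncam2 (-1.09) were not well above background in aged SAMP1. Lrrc52 lost its call without either SAMR1 mouse or SAMP1 mouse 4, and Ncam2 without either SAMR1 mouse or SAMP1 mouse 1. Of all 225 genes, 78 carried only a locus, clone or accession name and are not named here, 13 of the 225 being immunoglobulin segments.

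**Figure D2:**
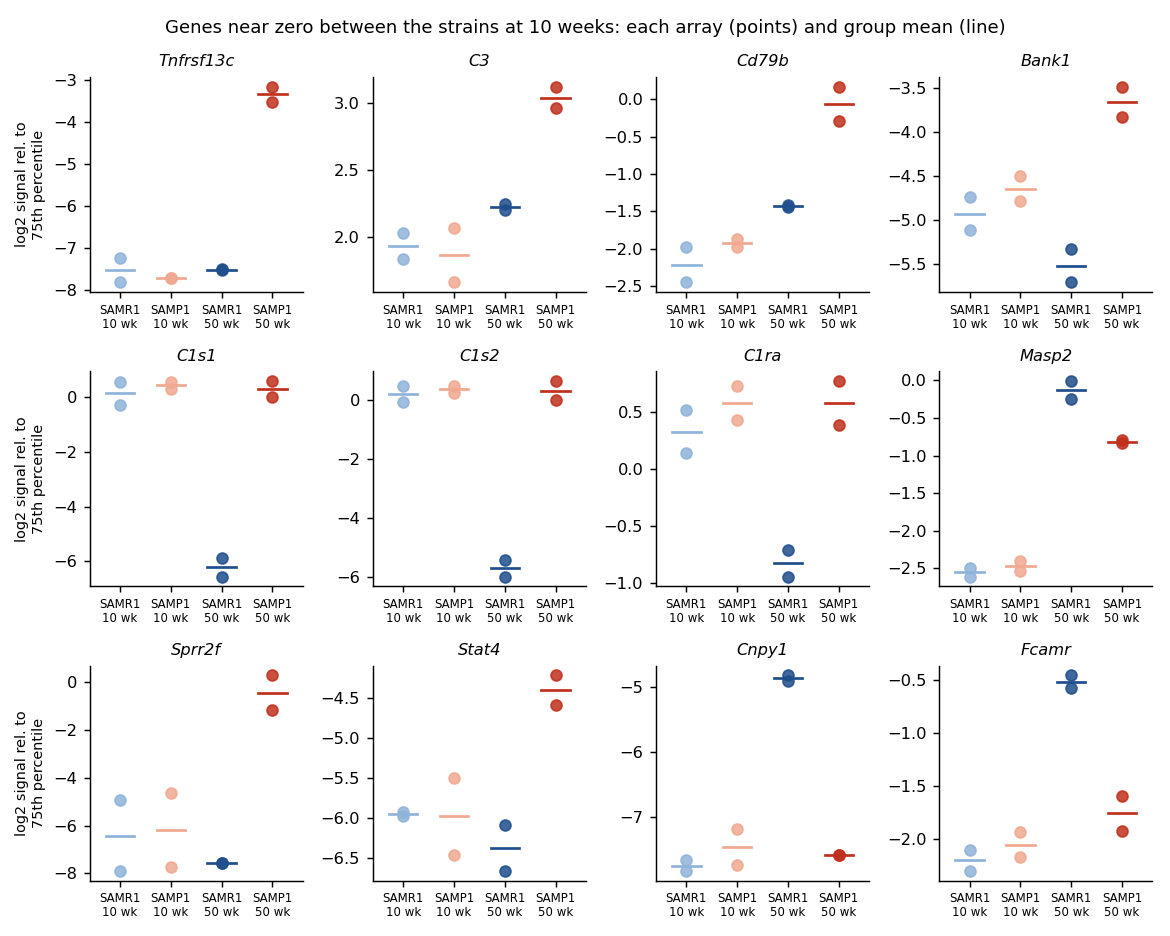
Levels of 12 genes that were called at 50 weeks and near zero at 10 weeks (vertical axis, log2 relative to the array's 75th percentile), with 1 point per mouse and a line at each group mean. Tnfrsf13c stands out in the 2 aged SAMP1 mice, and C1s1 and C1s2 are low in the 2 aged SAMR1 mice and similar in the other 6 animals.

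Immunoglobulin probes were grouped by the part of the antibody they read. An antibody chain joins 1 of many variable segments, which bind the antigen, to a constant region, which sets its class. The constant region of IgM, made by B cells before class switching, was read by 2 probes. The first was at 0.75 and 0.15 in the aged SAMR1 mice and at 4.37 and 3.71 in the aged SAMP1 mice, a difference of 3.59 ± 0.277 (adjusted p = 0.0015). The second gave -1.48 and -1.56 against 0.75 and 0.31, a difference of 2.05 ± 0.176 (adjusted p = 0.00216). At 10 weeks they differed by 0.16 and 0.06. Both kept their call without each array in turn and lost it with haemoglobin as a covariate (adjusted p = 0.13 and 0.135). They were the 2 higher calls among 13 constant-region probes, where 3.27% of all genes were called higher. Of the 13 probes 6 had a negative difference, and the median was 1.27 at 50 weeks.

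Other classes had larger spreads. IgG constant regions gave differences of 2.03 for gamma 2B, 3.25 for gamma 1 and 2.93 for gamma 2C (adjusted p = 0.102, 0.102 and 0.236), and SAMP1 mouse 1 was the higher of the 2 SAMP1 mice in each. The constant region of IgA, the class of secretions, went the other way, at 7.48 and 7.62 in aged SAMR1 and 6.00 and 5.88 in aged SAMP1, but did not pass (difference -1.61, adjusted p = 0.246). The kappa light-chain constant region differed by -0.55 (adjusted p = 0.474).

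Variable segments lay mostly below zero. Over all genes 2.23% were called lower and 3.27% higher. Of 72 kappa variable segments 14 fell and 1 rose, 63 had a negative difference and the median was -0.88, against -0.51 at 10 weeks. Of 61 heavy-chain variable segments 6 fell and none rose, 55 were negative and the median was -0.75. The 2 aged SAMP1 mice were unequal in this. Over the kappa segments the level was -1.287 and -1.101 in aged SAMR1, -1.478 in SAMP1 mouse 1 and -2.555 in SAMP1 mouse 4. Over the heavy segments it was -2.922 and -2.577 in aged SAMR1, -2.997 in SAMP1 mouse 1 and -3.795 in SAMP1 mouse 4. SAMP1 mouse 1 thus lay near the SAMR1 mice, and most of the shift was in SAMP1 mouse 4. At 10 weeks 34 of the kappa and 43 of the heavy segments were not well above background on either SAMR1 array, so much of the 10-week comparison is one of background. Both SAMP1 mice lay below both SAMR1 mice for 45 of the kappa and 31 of the heavy segments, and above them for 3 and 1, where 48.2% of all genes do not overlap in either direction. Of the 15 kappa and 6 heavy segments called, 1 of each kept its call with haemoglobin as a covariate. Igkv6-14 was the extreme case and 1 of the 2 genes with a called interaction. It was at -2.29 and -2.23 in the aged SAMR1 mice and at -7.74 and -7.76 in the aged SAMP1 mice, and at background in all 4 young mice, where the highest level was -7.82. It passed the filter only through the 2 aged SAMR1 arrays, so its 10-week difference is one of background. Its difference was -5.49 ± 0.0973 (adjusted p = 1.21e-05, at least 9.29-fold) and its interaction -5.51 ± 0.138 (adjusted p = 0.000205). Over the alternatives that adjusted p ran from 0.000135 to 0.172, with the highest under the haemoglobin covariate. The probe lies at chr6:70384946-70385004. Igkv9-129 and Igkv6-29 fell by 3.71 (adjusted p = 0.00343) and 3.46 (adjusted p = 0.00132), while Igkv8-21 rose by 3.04 (adjusted p = 0.0179) and lost its call without SAMR1 mouse 12, SAMP1 mouse 1 or SAMP1 mouse 4. These segments were chosen after their values were seen. Segment probes are near-identical in sequence within families, inbred strains carry different alleles of them, and strain variants under the probes were not analysed here.

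**Figure D3:**
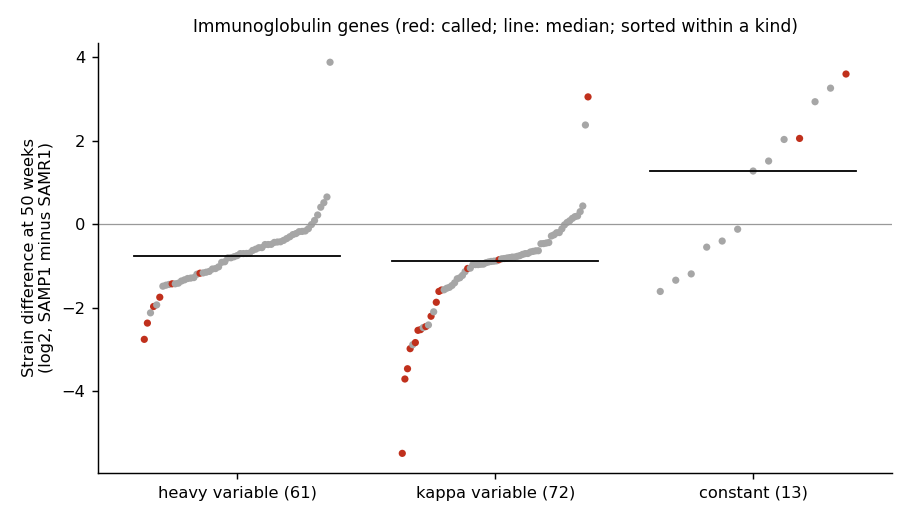
Strain difference at 50 weeks (vertical axis, log2 SAMP1 minus SAMR1) of immunoglobulin probes, sorted within each kind: 61 heavy-chain variable, 72 kappa variable and 13 constant-region probes. Most variable segments lie below 0, and the constant regions run from IgA below 0 to IgM above it.

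T-cell genes were higher in aged SAMP1 cortex. Of 13 tested T-cell genes 6 rose and none fell, against 3.27% of all genes called higher, with a median of 1.79 at 50 weeks and 0.72 at 10 weeks, when 2 of them were called. Cd8a, the co-receptor of cytotoxic T cells, was at -6.61 and -7.68 in SAMR1 and -1.96 and -2.51 in SAMP1, at least 9.17-fold. The difference was 4.91 ± 0.368 at 50 weeks (adjusted p = 0.00137) and 4.56 at 10 weeks. Cd2, an adhesion receptor of T cells, was at -4.02 and -3.94 against -1.54 and -1.87 and differed by 2.28 ± 0.335 (adjusted p = 0.015), with 0.54 at 10 weeks. Cd3d, a chain of the T-cell receptor complex, was higher by 2.02 (adjusted p = 0.0233), and Thy1, a surface protein of T cells and some stromal cells, by 2.00 (adjusted p = 0.00725). The kinase Lck, chosen after its values were seen, differed by 0.23 at 10 weeks and 1.12 at 50 (adjusted p = 0.0127). Cd3e and Cd4 did not pass, at 0.18 and -0.03. Since these are bulk tissue samples, more T cells and more RNA per T cell cannot be told apart.

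The T-cell count was lower with 1 aged mouse left out. Cd8a kept its call without each array in turn, Cd2, Cd3d and Lck lost theirs with any 1 aged mouse left out, and Thy1 without SAMR1 mouse 12. The count was 2 without SAMR1 mouse 6, 1 without SAMR1 mouse 12, and 2 without SAMP1 mouse 1 or mouse 4. Under the haemoglobin covariate it was 0, with a median of 1.07. Between aged mice in the same slide row the list's median was 1.23 and 1.99, and between those in the same slide column 1.73 and 1.35. The median level of erythroid genes moved with these groups, at -1.23 and 0.81 in aged SAMR1 and 4.53 and 2.43 in aged SAMP1. Its part in the T-cell result was not tested.

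Natural killer, myeloid and chemokine genes followed with fewer calls. Nkg7, a granule protein of cytotoxic cells, rose by 1.98 (adjusted p = 0.0036) and Klrk1, the activating receptor NKG2D, by 1.31 (adjusted p = 0.00544), which were 2 of 8 tested genes of their list. Both kept their call without each array in turn, and they differed by 1.21 and 1.22 at 10 weeks. Ccl5, a chemokine that attracts T cells, had a difference of 1.38 (adjusted p = 0.092). Of 15 macrophage and dendritic cell genes 4 rose, against the same 3.27%, with a median of 0.67: Mrc1, the mannose receptor, by 1.13, the C1q chains C1qc and C1qb as above, and Lyz2, lysozyme, by 1.04. Csf1r and Itgam, which mark macrophages broadly, were at 0.03 and -0.05. Without SAMR1 mouse 6 or SAMP1 mouse 4 none of the macrophage genes passed, and without SAMR1 mouse 12 1 did.

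Of 20 chemokines 3 rose (3.27% of all genes), with a median of 0.96: Ccl12, a ligand of the monocyte receptor CCR2, by 3.01 (adjusted p = 0.0193), Ccl6 by 1.25 and Cxcl16 by 1.06, with 2.01 for a second probe. Ccl8 and Cxcl9 had differences of 3.27 and 2.93 that did not pass (adjusted p = 0.0988 and 0.0916). The count was 0 without SAMR1 mouse 6 or SAMP1 mouse 4, and 1 without SAMR1 mouse 12 or SAMP1 mouse 1. Among 6 tested neutrophil genes Ly6g rose by 2.30 (adjusted p = 0.00132), with 2.42 at 10 weeks. S100a8 and S100a9, the calprotectin chains, had differences of 2.72 and 2.85 (adjusted p = 0.122 and 0.0872) and wide spreads, with S100a9 at -4.01 and -3.51 against -1.68 and -0.15. With haemoglobin as a covariate the natural killer, macrophage and chemokine lists held no call and Ly6g kept its own.

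Erythroid genes themselves showed the largest list median, 4.33 over 7 tested genes. None passed in limma, 6 had an unadjusted p under 0.05, and 5 passed with normexp background correction and 6 with an intensity trend in the prior. Hba-a2, an alpha-globin gene, was at 1.09 and 3.07 in aged SAMR1 and at 7.63 and 5.22 in aged SAMP1 (difference 4.34, adjusted p = 0.0969), and the sign was opposite at 10 weeks, with a list median of -2.80.

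**Figure D4:**
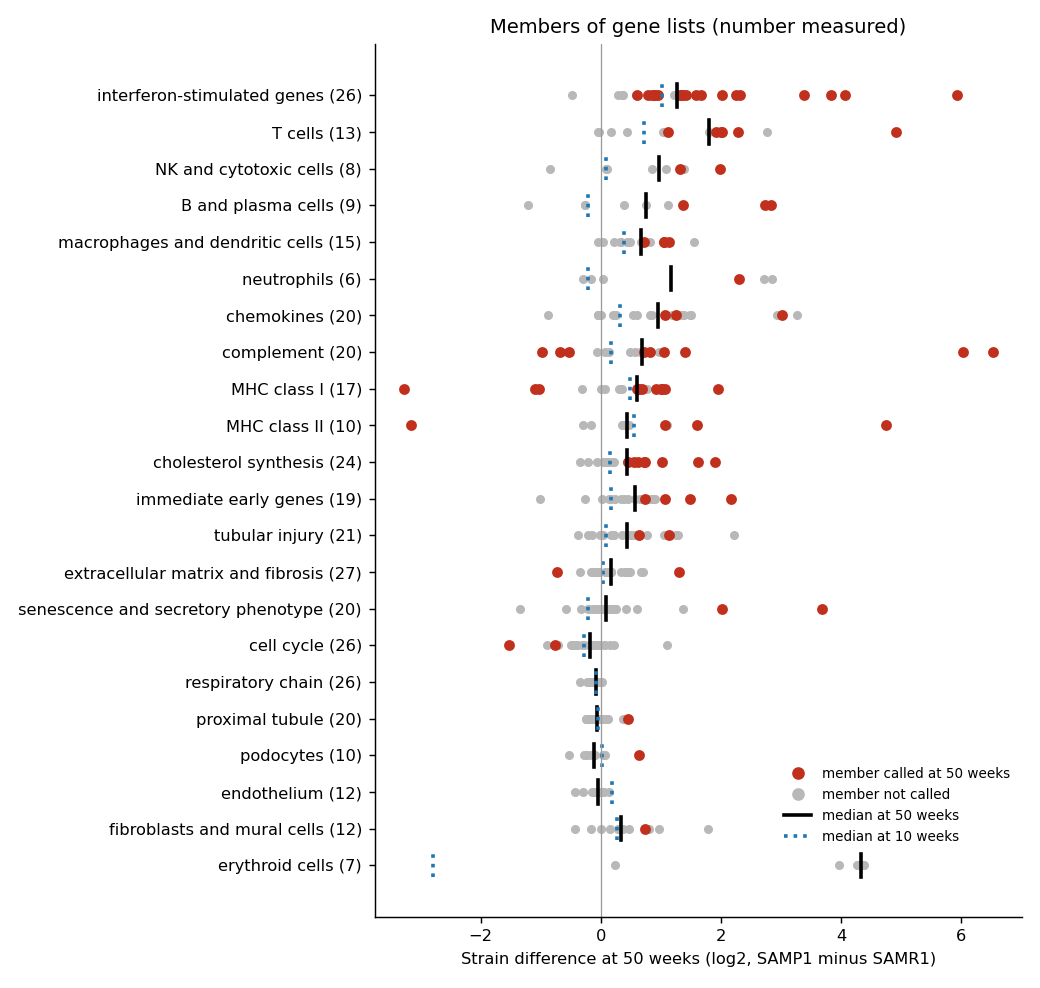
Strain difference at 50 weeks of the tested members of 22 gene lists (horizontal axis, log2 SAMP1 minus SAMR1), with 1 point per gene, called genes in red, a black line at the list's median at 50 weeks and a dotted line at its median at 10 weeks. Interferon-stimulated, T-cell and erythroid genes lie furthest to the right, and kidney cell markers sit around 0.

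Interferon-stimulated genes formed the list with the most calls. Interferons bind receptors that activate transcription factors, which switch on antiviral genes through a DNA element built from repeats of GAAA, and these genes are known to be raised in inflamed kidneys. Of 26 genes, all measured, 19 rose and none fell, against 3.27% and 2.23% of all genes. In all 26 both SAMP1 mice lay on 1 side of both SAMR1 mice, as they did in 48.2% of all genes. The median was 1.27 at 50 weeks and 1.01 at 10 weeks, when 17 of them were called, so most of this difference was present in young mice. Ifi27l2a, an interferon-induced mitochondrial and membrane protein, was at -3.85 and -3.43 in aged SAMR1 and at 2.04 and 2.55 in aged SAMP1, a difference of 5.93 ± 0.807 (adjusted p = 0.0117). It lost its call without SAMR1 mouse 6, SAMR1 mouse 12 or SAMP1 mouse 4.

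The oligoadenylate synthetases, which sense double-stranded RNA and activate the nuclease RNase L, came next. Oas2 was at -5.38 and -4.71 in SAMR1 and -1.31 and -0.64 in SAMP1, higher by 4.07 (adjusted p = 0.00343). Oas1a was at -3.77 and -3.16 against 0.31 and 0.44, higher by 3.84 ± 0.284 (adjusted p = 0.00132), with 4.17 at 10 weeks. Mx1, an antiviral GTPase, was higher by 3.37 (at least 2.59-fold), with no aged SAMR1 array well above background. Its call was also lost with normexp background correction, and over the alternatives its difference ran from 0.20 to 3.43. Further members were chosen after their values were seen. Ifit1, which binds foreign RNA ends, was at -5.10 and -4.97 against -2.98 and -2.46 (2.32 ± 0.185, adjusted p = 0.00165). Isg15, a ubiquitin-like modifier, was at -0.99 and -1.06 against 0.27 and 0.50 (1.42 ± 0.104, adjusted p = 0.00132). Irf7, the transcription factor that amplifies the interferon response, was at -0.92 and -0.72 against 1.05 and 1.34 (2.02 ± 0.134, adjusted p = 0.000943). The transcription factor Irf1 had a smaller difference, 0.60. Rsad2, the antiviral enzyme viperin, was the exception in sign, at -0.47 (adjusted p = 0.262).

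The count of 19 lay between 13 and 17 without any 1 array, with 13 without SAMR1 mouse 6 and 14 without SAMP1 mouse 1 or mouse 4. Under the haemoglobin covariate no member passed, although the median stayed at 0.98. Between aged mice in the same slide row the median was 1.45 and 1.02, and in the same column 1.37 and 0.995.

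Promoters of 18 of the 26 genes were in the RefSeq sequences (build GRCm38.p6). The letters GAAANNGAAA, an interferon response core, were searched on both strands of the 250 bases before the start, and overlapping matches were each counted. They occur in 978 of 32851 promoters (2.98%), in 10 of the 18 list members (55.6%), in 5 of the 11 that were called (45.5%) and in 5 of the 7 that were not (71.4%). A match is a description of these letters in this window and does not show binding. Oas1a, Isg15 and Ifit1 are shown as called genes with at least 2 matches and a difference above 1, with matches in capitals. Oas1a (minus strand, chr5:120907526-120907775) has 2 matches, the nearer beginning 14 bases before the start. Isg15 (minus strand, chr4:156200819-156201068) has 3, the nearest 66 bases before it. Ifit1 (plus strand, chr19:34640639-34640888) has 2, the nearer 85 bases before it.
Oas1a: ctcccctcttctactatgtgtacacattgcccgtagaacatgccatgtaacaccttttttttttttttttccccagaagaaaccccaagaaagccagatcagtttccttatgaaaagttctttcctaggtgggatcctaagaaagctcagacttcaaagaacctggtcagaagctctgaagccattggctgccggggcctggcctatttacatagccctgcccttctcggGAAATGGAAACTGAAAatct
Isg15: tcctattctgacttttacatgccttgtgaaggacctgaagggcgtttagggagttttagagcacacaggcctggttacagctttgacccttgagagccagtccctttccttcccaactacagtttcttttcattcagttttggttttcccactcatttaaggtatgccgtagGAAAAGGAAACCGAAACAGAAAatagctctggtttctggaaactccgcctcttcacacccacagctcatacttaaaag
Ifit1: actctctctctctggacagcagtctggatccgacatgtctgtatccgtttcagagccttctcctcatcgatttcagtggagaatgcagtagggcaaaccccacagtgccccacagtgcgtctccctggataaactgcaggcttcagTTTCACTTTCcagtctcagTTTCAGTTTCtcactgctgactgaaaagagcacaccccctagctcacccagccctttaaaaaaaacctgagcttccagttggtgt
All 3 are the reference sequence, not that of SAMP1 or SAMR1.

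**Figure D5:**
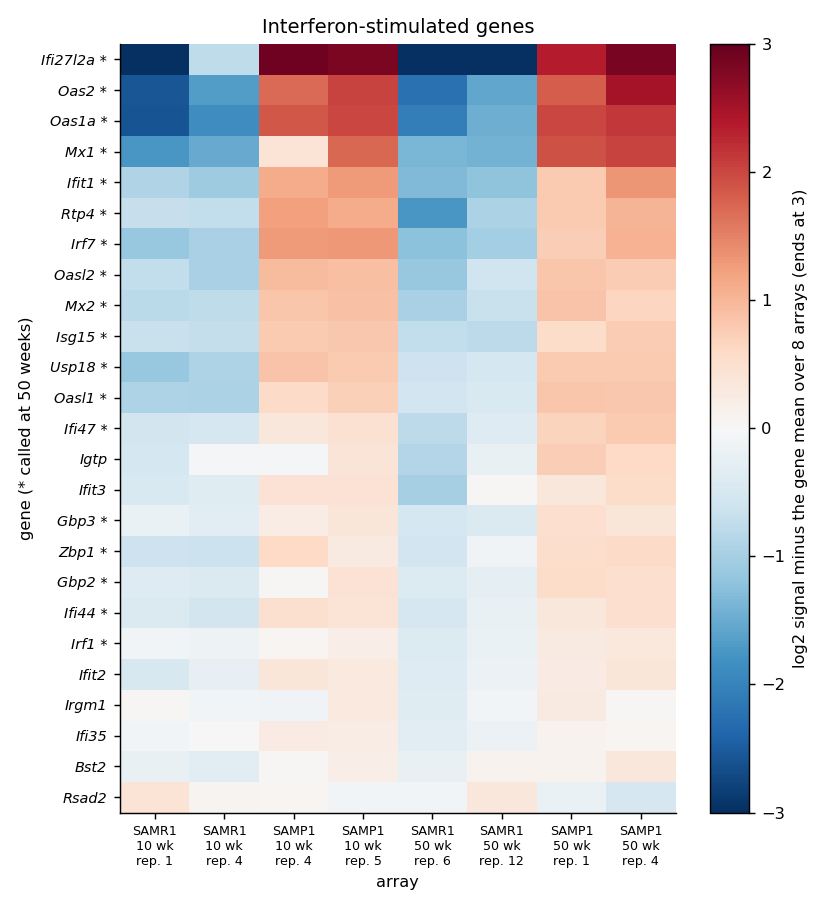
Heat map of 25 interferon-stimulated genes (vertical) on the 8 arrays (horizontal), coloured by log2 level minus the gene's mean over the arrays, with the colour scale ending at 3 and an asterisk for genes called at 50 weeks. The SAMP1 arrays are higher at both ages for most genes.

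Antigen presentation genes moved in both directions. Class I molecules show cell-internal peptides to CD8 T cells, and class II molecules show taken-up peptides to CD4 T cells. Both families differ between mouse strains by haplotype, that is, by the versions carried, so probes can miss an allele. Of 17 class I genes 8 rose and 3 fell (median 0.60), where 3.27% of all genes were called higher and 2.23% lower. H2-D1 was at 3.02 and 2.91 in aged SAMR1 and -0.42 and -0.21 in aged SAMP1, a difference of -3.28 ± 0.116 (adjusted p = 9.85e-05), with -2.73 at 10 weeks. H2-K1 fell by 1.10 (adjusted p = 0.0145), but a second probe gave 0.16. Nlrc5, the transactivator of class I genes, rose by 1.95 (adjusted p = 0.00903), although a second probe gave 0.63. Psmb9, a subunit of the immunoproteasome, rose by 1.07 (adjusted p = 0.0154). Of 10 class II genes H2-Ea rose by 4.75 (at least 5.85-fold), H2-Oa by 1.60 and H2-DMb1 by 1.06, and H2-Aa fell by 3.16 (adjusted p = 0.00036). These had like values at 10 weeks (3.79, 1.02, 1.24 and -3.25). Fewer class I genes rose without single aged mice (2 without SAMP1 mouse 4, and 4 without each other aged mouse), and H2-D1 and H2-Aa kept their calls in every alternative. With haemoglobin as a covariate these 2 were the calls left in the 2 families. H2-K1, Psmb9 and H2-Oa lost theirs with any 1 aged mouse left out, Nlrc5 without SAMP1 mouse 4 and H2-DMb1 without SAMR1 mouse 6 or SAMP1 mouse 4.

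Cholesterol synthesis genes had smaller differences, and some passed the test. Cells make cholesterol from acetyl-CoA by a chain of enzymes under the control of SREBP2. Of 24 genes 8 rose and none fell, against 3.27% and 2.23% of all genes, 21 were positive and the median was 0.44, against 0.16 at 10 weeks, when 2 were called. Sqle, squalene epoxidase, was at 1.25 and 1.49 in aged SAMR1 and at 3.27 and 3.25 in aged SAMP1, higher by 1.89 ± 0.137 (adjusted p = 0.00123), with 1.18 at 10 weeks. Insig1, which holds SREBP in the endoplasmic reticulum, rose by 1.01 (adjusted p = 0.00935), and Msmo1, a sterol oxidase, by 0.73 (adjusted p = 0.024). Fdft1, Fdps, Pmvk and Mvk, enzymes of the same chain, rose as well. The count was 2 without SAMR1 mouse 6 or SAMP1 mouse 1, 3 without SAMP1 mouse 4, 5 without SAMR1 mouse 12 and 0 with haemoglobin as a covariate, while Sqle kept its call without each array in turn. With the mean of all kept probes of a gene 5 were called higher and 1 lower, with a median of 0.28.

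Other metabolic lists held few calls. Of 26 respiratory chain genes none passed and 2 were positive, with a median of -0.09 at both ages. Gstm1, a glutathione transferase, rose by 1.15 (adjusted p = 0.00656), and Cyp2d26 and Nqo1 by 0.94 and 0.55, while Cyp2a4 fell by 0.52, among 34 genes of xenobiotic metabolism. These were 3 higher calls and 1 lower, against 3.27% and 2.23% of all genes. The last 3 genes named lost their call with any 1 aged mouse left out, and the list held no call with haemoglobin as a covariate. Second probes gave 0.38 for Gstm1 and 0.30 for Cyp2d26, whose call was also lost with the mean of its kept probes. Slco1a1, an androgen-regulated organic anion transporter of the proximal tubule, fell by 1.59 ± 0.146 (adjusted p = 0.00281), from 2.55 and 2.54 in SAMR1 to 1.02 and 0.88 in SAMP1. In the renin-angiotensin list Agt, angiotensinogen, fell by 0.58, a call that was lost with any 1 aged mouse left out. None of 18 clock genes and none of 25 glutathione genes passed in limma.

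Injury, senescence and matrix genes gave a mixed picture. Mmp3, a matrix-degrading protease of the senescence-associated secretory phenotype, was at -7.44 and -6.31 in aged SAMR1, below background, and at -3.60 and -2.79 in aged SAMP1. It was higher by 3.69 ± 0.411 (adjusted p = 0.00579, at least 4.71-fold), with -0.36 at 10 weeks, and kept its call without each array in turn. Il1b, the inflammatory cytokine interleukin-1 beta, was at -3.97 and -4.12 against -1.97 and -2.08, higher by 2.02 ± 0.305 (adjusted p = 0.0166), with -0.88 at 10 weeks. It lost its call with any 1 aged mouse left out. These 2 were the calls among 20 senescence genes, whose median was 0.08, where 3.27% of all genes were called higher. Neither of the 2 kept its call with haemoglobin as a covariate. Cdkn2a, the p16 gene, had a difference of 1.36 that did not pass (adjusted p = 0.327), with levels of -5.87 and -6.12 against -4.97 and -4.30 near background.

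Over all genes 3.27% were called higher and 2.23% lower, which are the shares to set beside each list that follows. Of 21 tubular injury genes Fga, a fibrinogen chain, rose by 1.14 and Vim, vimentin, by 0.64, with a list median of 0.43. A second probe for Fga gave 0.03, and both calls were lost with any 1 aged mouse left out. Krt20 and Krt19, keratins of injured tubules, had differences of 2.22 and 1.28 with adjusted p of 0.198 and 0.212. Of 19 immediate early genes 4 rose (median 0.58): Nr4a1 by 2.16 (adjusted p = 0.00932), Ier3 by 1.48 (adjusted p = 0.0015), Nr4a2 by 1.07 and Fosb by 0.73. The count was 1 without SAMR1 mouse 6 or 12. The median rested on SAMP1 mouse 1: it was 0.06 without that mouse, and it was -0.12, with no call, under the haemoglobin covariate. Within slide rows and columns it was 0.63 and 0.75 for the pairs with SAMP1 mouse 1 and 0.11 and 0.03 for those with SAMP1 mouse 4. Of 27 matrix genes Postn, periostin, rose by 1.30 (adjusted p = 0.0145), a second probe giving 1.81, and differed by 0.06 at 10 weeks. Timp3, a protease inhibitor of basement membranes, fell by 0.73 (adjusted p = 0.0438), but its other probes gave 2.05 and 0.08, and the mean of all its probes was 0.46 (adjusted p = 0.0603). The 1 higher and 1 lower call of 27 are near the 3.27% and 2.23% of all genes. Postn lost its call with any 1 aged mouse left out. Of 26 cell cycle genes Cenpf and Ccnb1 fell by 1.53 and 0.76, and a second probe for Cenpf gave -0.31. Chac1, a stress-induced glutathione enzyme, fell by 1.01 as the 1 call among 22 stress genes, lost without SAMP1 mouse 1 or 4 and without any 1 of the young mice. Ccnb1 lost its call without SAMR1 mouse 12 or either SAMP1 mouse of 50 weeks, and Cenpf kept its own without each array in turn. Both lost their call with normexp background correction, and over the alternatives the difference of Cenpf ran from -2.01 to -0.21. With haemoglobin as a covariate the injury and matrix lists held no call and the cell cycle list held Cenpf.

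Markers of kidney cell types differed little. The proximal tubule list of 20 genes had a median of -0.07 and 1 call, Slc13a3, a dicarboxylate transporter, higher by 0.46. Over all genes 3.27% were called higher. None of 9 thick ascending limb, 11 intercalated cell or 12 endothelial genes passed in limma. S100g, the calcium-binding protein calbindin-D9k of the distal tubule, was at 5.49 and 5.72 in aged SAMR1 and 3.79 and 3.88 in aged SAMP1, a difference of -1.77 ± 0.17 (adjusted p = 0.00338). Aqp4, a water channel of collecting duct principal cells, was at 0.24 and 0.51 against -1.44 and -1.06, a difference of -1.62 ± 0.212 (adjusted p = 0.01), and lost its call without SAMR1 mouse 12. Their 10-week differences were -0.71 and -0.73, and neither interaction passed. Dcn, decorin of fibroblasts, rose by 0.73 (adjusted p = 0.0154). Slc13a3 and Dcn lost their calls with any 1 aged mouse left out, and Slc13a3, S100g, Aqp4 and Dcn lost theirs with haemoglobin as a covariate.

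The largest differences at 50 weeks were mostly present at 10 weeks too. Dydc2, a DPY30-domain protein, was at -6.63 and -7.43 in aged SAMR1 and at 0.71 and 0.54 in aged SAMP1, at least 66.4-fold, with differences of 7.66 ± 0.259 at 50 weeks (adjusted p = 9.07e-05) and 8.23 at 10 weeks. Ces1g, a carboxylesterase, was higher by 7.34 ± 0.234 (adjusted p = 7.92e-05) and by 5.33 at 10 weeks. Gabra3, a GABA receptor subunit, was higher by 6.52 at 50 weeks and by 6.47 at 10 weeks. Nlrc4, an inflammasome sensor of bacterial proteins, was higher by 5.26 (at least 18.9-fold). Elobl and Zfp971, a zinc-finger gene, were higher by 5.54 and 5.28.

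In the lower direction Fabp1, a fatty acid carrier of liver and proximal tubule, was at 1.16 and 1.17 against -4.23 and -4.51, a difference of -5.54 ± 0.121 (adjusted p = 2.08e-05), with -5.22 at 10 weeks. Mep1a, the alpha subunit of the brush-border protease meprin, was at 6.57 and 6.72 against 2.77 and 2.86, and its difference of -3.83 ± 0.11 (adjusted p = 5.37e-05) matched the -3.99 of young mice. Chrna4, a nicotinic receptor subunit, and Pik3c2g, a lipid kinase, differed by -3.65 and -3.94, and 4 other probes for Pik3c2g gave -2.74 to -3.94. Mc3r, a melanocortin receptor, had a difference of -4.97 that was lost with any 1 aged mouse left out. Zfp33b, Ankrd65, Lhfpl1, Shisa7, Mansc4 and H2-Q1 complete the 12 lowest among genes with a symbol, accession-named immunoglobulin segments being passed over, with Prim2, a primase subunit, whose second probe differed by -0.05 against -3.77.

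Called genes were joined into runs by their distance along the genome. In runs of at least 3 called genes with gaps of at most 2 Mb, 137 runs held 940 of the 1241 called genes that have a position. The longest by count, chr17:32044984-37411409, holds the major histocompatibility complex and had 42 called of 234 tested genes (17.9%), 27 of them also called at 10 weeks. On chromosome 6 a run from 66967776 to 72556715 had 25 of 122 (20.5%) and spans Fabp1, Cd8a, Mrpl35 and Ggcx, with 9 of its genes near zero at 10 weeks. Of its called genes 4 were higher and 21 lower in SAMP1. The probe of the kappa variable segment Igkv6-14, described above, also lies in this run. How many of the run's genes are immunoglobulin segments was not counted. Runs with Dydc2 on chromosome 14 and with Mansc4 on chromosome 6 had 16 of 40 (40.0%) and 14 of 34 (41.2%). The calls themselves define these runs, so their shares are a description, and the grouping expected by chance was not computed. Over the autosomes and chromosome X the called share ran from 3.59% on chromosome 5 to 8.10% on chromosome 6.

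Several probes for 1 gene gave a check of single differences. Of the called genes 375 had another kept probe, and in 305 of them every other probe had the same sign. Of 521 such probes 441 had the same sign, 410 lay within 1 log2 unit of the probe used, and 308 had the same sign with an unadjusted p under 0.05. In 70 genes at least 1 probe pointed the other way. For 114 called higher genes no aged SAMR1 array was well above background, and for 98 called lower genes no aged SAMP1 array was, so the folds of these are bounds.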

How the data were processed

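RNA from kidney cortex of 8 male mice was measured on 8 1-colour Agilent arrays of 1 slide. The submitters' processing notes name Agilent Feature Extraction 12.0.3.1 as the image reader. The deposited scanner files give an intensity for each spot, background-subtracted per the file headers, with flags for spots well above background. The authors' deposited value table holds log2 values of the same arrays, whose further processing is not given in the sources used here, and was used as an alternative.

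Control spots were left out, log2 intensity was centred on each array's 75th percentile, and spots of a probe were averaged. The filter kept 35375 of 56605 probes, those flagged well above background in both mice of any group, and 5 more were dropped for outlier flags. A gene took its kept probe with the highest mean. Names came from RefSeq by accession for 35405 probes and from the array otherwise. limma 3.58.1 (R 4.3.3) fitted 1 coefficient per group to all 8 arrays, with 4 residual degrees of freedom and two-sided Benjamini-Hochberg adjustment over 22658 genes. The number of arrays limits the precision.

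A fold given as "at least" sets the brighter group's mean against the higher of the dimmer signal and the lowest signal among probes well above background. The strains share no pairing at 50 weeks. Genes were named as the 12 largest called differences in each direction, the 8 largest in each direction near zero at 10 weeks, the genes with a called interaction, up to 4 members of each list and up to 4 genes of a run. Accession, clone and predicted-locus names were passed over, and some genes are not reported here. The members and gene lists were chosen with earlier results of these data known. The fit was tested on simulated data. Probe positions are mm9, per the file headers, and exons, UTRs and strain variants under the probes were not analysed here.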

Additional observations from a re-analysis of the deposited data

Results flagged for a closer look

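For 2 genes the strain difference at 50 weeks differed from that at 10 weeks by the test of the difference itself. For the kappa variable segment Igkv6-14 (ENSMUST00000103394.1) the 50-week difference minus the 10-week difference was -5.51 (adjusted p = 0.000205), with signal well above background in the 2 aged SAMR1 mice alone. With normexp background correction it was -0.90 (adjusted p = 0.0308). For Tnfrsf13c it was 4.37 (adjusted p = 0.0489), with signal well above background in the 2 aged SAMP1 mice alone. Without the filter on dim probes, when another probe stands for the gene, it was 0.09 (adjusted p = 0.984). Each of the 2 genes passed the filter only through the 2 arrays named for it, so its 10-week difference compares background with background. Both interaction calls therefore rest in part on how the probes entered the test. Groups of 2 mice were not screened for single outlying samples.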

How the results depend on the processing

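No paired analysis was possible because the 50-week SAMR1 mice (6 and 12) and SAMP1 mice (1 and 4) share no replicate number. Slide rows and columns each held 1 aged mouse of either strain, and with them as blocks 950 and 919 genes were called at 50 weeks. The number of genes called at 50 weeks, 1248, was 824 without the filter on dim probes, 658 with the 50-week arrays alone and 85 with haemoglobin as a covariate, and it lay between 572 and 1025 when 1 array was left out. For 10 weeks (786) it was 470 with the slide column as a block, 168 with haemoglobin as a covariate and 311 to 673 with 1 array left out. For the interaction (2) it was 23 with normexp, 4 with quantile normalization (1 higher, 3 lower), 7 with centring on the array median (5 higher, 2 lower), 1 without the filter, 1 with the slide column, 12 with an intensity trend in the prior and 1 to 9 with 1 array left out. It was 0 in limma with the strict filter, which tests fewer genes (1303 at an unadjusted p under 0.05), and 0 with haemoglobin as a covariate (856 at an unadjusted p under 0.05). Genes called at 50 weeks and near zero at 10 weeks (225) numbered 542 with normexp, 129 without the filter, 134 and 144 with the slide row and column as blocks, 5 with haemoglobin as a covariate, 407 with the trend, 393 with a limit of 0.5, and 75 to 148 with 1 array left out. The sign of Timp3 turned with the mean of all kept probes (0.46). For the other changes the cause was not tested. Of 108 called genes chosen by the naming rule, 107 kept their call with the deposited value table, 105 with quantile normalization, 91 with normexp, 82 without the filter, 27 with haemoglobin as a covariate and 65 to 95 with 1 array left out. Of the 1247 genes called from the deposited value table, 1216 were among the 1248.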
